A study of Mus musculus with 48 samples.

Results

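The 10 genes Fos, Fosb, Junb, Egr1, Egr2, Egr3, Egr4, Arc, Npas4 and Nr4a1 are immediate early genes, taken by symbol from the 24444 genes of an RNA-seq study of the mouse cerebral cortex, and all 10 were measured in all 48 mice. The study compared wild-type (WT) mice with mice heterozygous for Chd8 V986*/+, an allele in which stop codons were introduced into the gene for the chromatin remodeler CHD8. Both genotypes were sampled as embryos (E14.5) and at an age of 1, 6 or 12 months, which gives 8 groups of 6 replicates, each a separate mouse. The mice were males on a C57BL/6J background with littermate controls, the labels name no treatment, and the mutant allele comes from a single founder. Values are variance-stabilized (VST) expression on a log2 scale, whose most frequent value, 2.14, was taken as its floor. It is not a strict lower bound, since Egr4 was 1.99 in 1 WT embryo. They are not divided by transcript length, so levels are compared between mice and ages but not between genes.

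Immediate early genes are transcribed within minutes of synaptic activity or growth factor signaling, without a need for new protein. Calcium entry and kinase cascades act on factors already bound at their promoters, mainly CREB at cyclic AMP response elements and SRF at CArG boxes, and the transcripts are short-lived. In the cortex their RNA is widely used as a record of recent neuronal activity. Fos, Fosb and Junb encode subunits of the AP-1 transcription factor, the Egr genes encode zinc finger transcription factors, Npas4 encodes a neuron-enriched factor induced by calcium, Nr4a1 encodes an orphan nuclear receptor, and Arc encodes a synaptic protein that promotes removal of AMPA receptors.

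Promoter sequences are shown because most of the 10 genes moved together among mice, as described later. RefSeq windows (build GRCm38.p6) were held for 7 of the 10 genes, with none for Egr1, Egr3 and Arc. The letters TGACG, the core of the cyclic AMP response element, were present on either strand within the 250 bases before the start in 7 of the 7 genes, and in 19.8% of the 27025 genes with such a window. Within the same 250 bases a CArG box was present in Egr2 alone among the 7 genes, and in 1.62% of all genes. Sequence farther from the start was not searched, so a CArG box there would be missed. The stretches from base -120 to base -41 before the start are given 5′ to 3′ on the strand of the gene, with TGACG or its reverse complement and the CArG box in capitals. A match of letters is not evidence of binding.
Fos, chr12:85473770-85473849, plus strand: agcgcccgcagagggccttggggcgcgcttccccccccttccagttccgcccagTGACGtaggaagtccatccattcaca
Fosb, chr7:19310086-19310165, minus strand: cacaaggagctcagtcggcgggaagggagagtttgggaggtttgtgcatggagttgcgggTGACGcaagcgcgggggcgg
Egr2, chr10:67537749-67537828, plus strand: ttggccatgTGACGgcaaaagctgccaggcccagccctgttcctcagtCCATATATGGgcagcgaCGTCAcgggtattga
Nr4a1, chr15:101266726-101266805, plus strand: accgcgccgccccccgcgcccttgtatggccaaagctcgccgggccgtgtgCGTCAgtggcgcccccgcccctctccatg

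The targeted gene followed the genotype labels. Chd8 was lower in Chd8 V986*/+ mice than in every WT mouse of the same age, with mean differences of -0.63, -0.67, -0.64 and -0.54 log2 units from the youngest to the oldest age (n = 6 per genotype; exact permutation p = 0.0022 at each age, the smallest that 6 against 6 mice allow). Cortical neuron markers, such as Slc17a7, Camk2a and Neurod6, were well above the floor at every age. At E14.5, markers of midbrain, hindbrain and spinal cord, which a cortical dissection should lack, ranged in their mean level from 2.92 to 7.05 in WT embryos and from 2.78 to 4.06 in Chd8 V986*/+ embryos, and at 1 to 12 months they stayed between 2.65 and 3.16. In whole tissue, fewer cells of a type and less RNA per cell cannot be told apart.

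From E14.5 to 1 month, all 10 immediate early genes rose in both genotypes, and no embryo reached the level of any 1-month-old mouse. The share of all genes separated in this way was not computed, so the separation is only a description and does not set these genes apart from others. In WT mice 10 of 10 were called higher, against a background of 43.4% of 17285 genes, and in Chd8 V986*/+ mice 10 of 10 against 43.7% of 17227 genes (limma, Benjamini-Hochberg adjusted p below 0.1 over all genes tested, the rule for every call here). The rises ranged from 3.99 to 7.39 log2 units in WT mice and from 3.79 to 7.13 in Chd8 V986*/+ mice. The median difference over all genes was 0.02 in either genotype. In either direction, 14821 genes were called in WT mice and 14840 in Chd8 V986*/+ mice. Cell type markers moved over the same interval. Their mean level in WT mice went from 11.4 to 14.2 for cortical neurons and from 8.39 to 12.6 for astrocytes. It went from 6.31 to 14.0 for oligodendrocytes and from 7.45 to 10.4 for microglia. Of the 10 cortical neuron markers, 7 were called higher and 3 lower (Tubb3, Stmn2 and Neurod6). The part of these markers in the rise was not tested.

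Among the AP-1 subunits, Fos lay between 4.18 and 5.0 in WT embryos (median 4.65) and between 8.92 and 10.30 in WT mice at 1 month (median 10.08), a difference of 5.30 ± 0.21 (SE, n = 6 per age; adjusted p = 1.0e-12). Fosb was near the floor in WT embryos, from 2.94 to 3.57, and lay between 8.77 and 9.75 at 1 month. Junb went from 6.33 to 6.85 in embryos to 10.33 to 11.15 at 1 month, one of the smaller rises at 4.23 ± 0.12. The ranges at these 2 ages were separated by more than 3 log2 units in each of the 3 genes.

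The Egr genes rose by 5.38 (Egr2) to 7.39 (Egr4) in WT mice. Egr4 lay between 1.99 and 3.37 in WT embryos, at or near the floor, and between 9.95 and 10.60 at 1 month. Egr2 was also low in WT embryos, with a median of 3.36, and had a median of 8.76 at 1 month. Egr1 rose by 7.0 ± 0.13 and Egr3 by 6.30 ± 0.12 (SE), and both were already well above the floor in embryos, with medians of 6.59 and 6.51. Arc rose by 6.40 ± 0.17, Nr4a1 by 4.65 ± 0.14, and Npas4, the member with the smallest rise in WT mice, by 3.99 ± 0.21, from a median of 5.41 to a median of 9.14.

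Other genes of the same response moved in both directions, as genes did in general. Of the 17285 genes tested in WT mice, 43.4% were called higher and 14821 genes were called in either direction. Of 34 other early response genes, 17 were called higher and 11 lower in WT mice at 1 month, with a median difference of 0.39. Ptgs2, the inducible cyclooxygenase, rose by 6.28, while Dusp4, a phosphatase that acts on MAP kinases, fell by 3.22 on the log2 scale. Of 8 late response genes, which follow the immediate early genes, 7 were called higher, led by the neuropeptide precursor Vgf (5.15) and the prohormone convertase Pcsk1 (4.11). Of 13 upstream factors, 12 were called higher and 1 lower, with the kinase Camk4 at 3.56 and the activity-regulated factor Mef2c at 3.39.

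**Figure D1:**
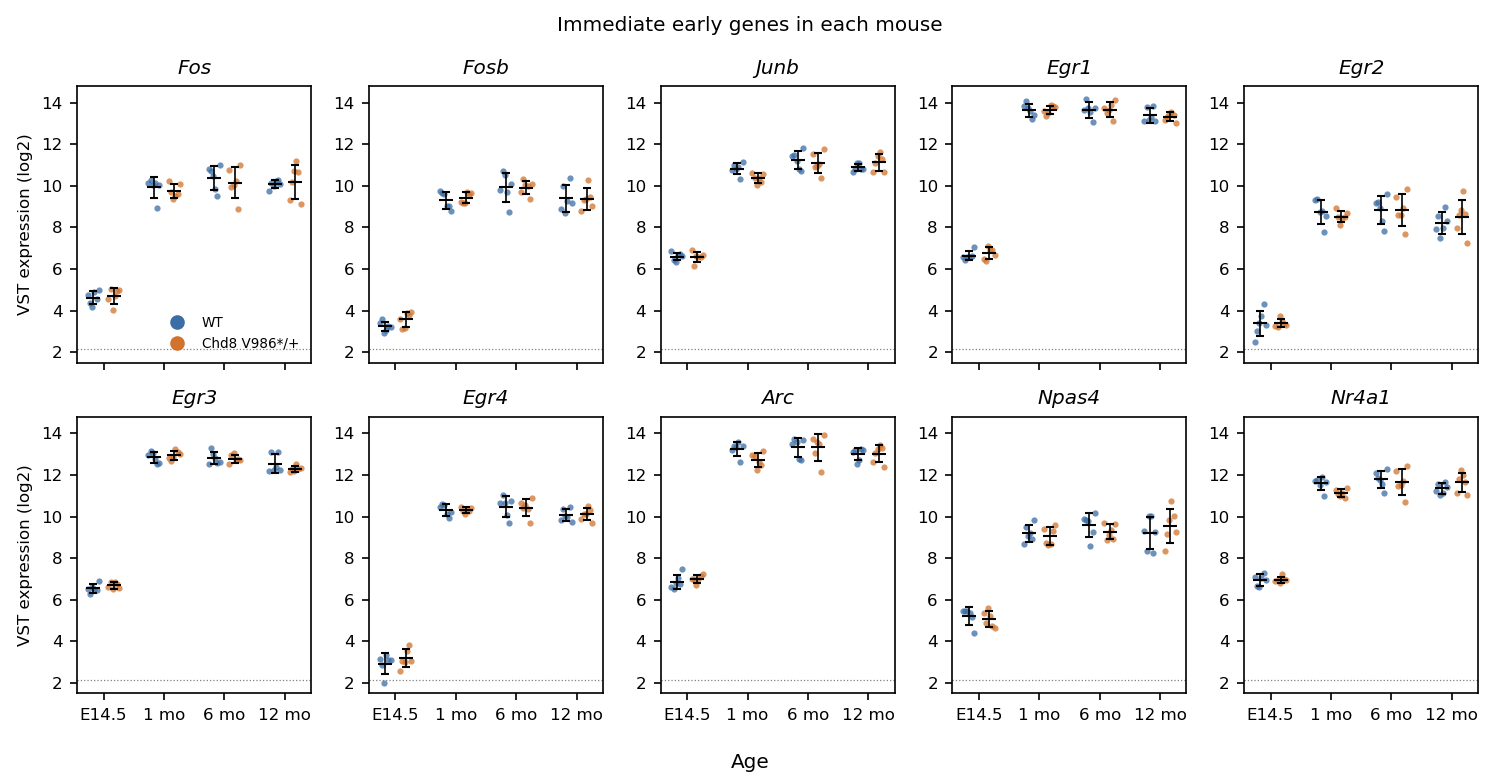
VST expression (log2) of the 10 genes by age in each of the 48 mice, with WT in blue and Chd8 V986*/+ in orange. Points are mice, black bars are the mean ± SD of 6 mice and the dotted line is the floor at 2.14. Each of the 10 genes is separated between E14.5 and the later ages, and the share of all genes so separated was not computed. From 1 to 12 months the spread between mice of a group is wide against the differences between groups.

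Between WT and Chd8 V986*/+ mice of the same age, none of the 10 genes was called at any age. The count was 0 of 10 in embryos, against 0.00593% of 16877 genes tested. It was 0 of 10 at 1 month against 0.139% of 17221 genes, 0 of 10 at 6 months against 0.0927% of 17256 genes, and 0 of 10 at 12 months against 0.0463% of 17288 genes. With an unadjusted limma p below 0.05 the counts of members were 0, 3, 0 and 0 of 10, against 4.56%, 8.8%, 7.59% and 11.6% of all genes tested at E14.5 and at the later ages in order. Exact permutation tests of the same 40 differences gave 3 with p below 0.05, the same 3 genes at 1 month, and groups overlapped in all 40. The shares of all genes with such an exact p, or without overlap, were not computed with all mice, so these counts have no background beside them.

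Those 3 genes were Junb, Nr4a1 and Arc, all with lower means in Chd8 V986*/+ mice at 1 month. Junb lay between 10.33 and 11.15 in WT mice (median 10.86) and between 10.04 and 10.64 in Chd8 V986*/+ mice (median 10.37). The difference was -0.46 ± 0.12 (SE; limma adjusted p = 0.21; exact permutation p = 0.015, unadjusted, n = 6 per genotype). Nr4a1 lay between 11.02 and 11.93 in WT mice (median 11.68) and between 10.91 and 11.39 in Chd8 V986*/+ mice (median 11.12), a difference of -0.47 ± 0.12 (adjusted p = 0.19; exact permutation p = 0.013). Arc lay between 12.63 and 13.58 in WT mice (median 13.38) and between 12.23 and 13.15 in Chd8 V986*/+ mice (median 12.76), a difference of -0.54 ± 0.15 (adjusted p = 0.31; exact permutation p = 0.026).

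For Junb, Nr4a1 and Arc the overlap at 1 month came from 1 WT mouse, replicate 5. Its Fos level was 8.92, against 10.02 to 10.30 in the other 5 WT mice, and its Junb (10.33), Nr4a1 (11.02) and Arc (12.63) were also the lowest of the WT mice. Without it, all 6 Chd8 V986*/+ mice lay below all 5 remaining WT mice for Junb, Nr4a1 and Arc, and all 3 were called lower, with differences of -0.56 (adjusted p = 0.060), -0.59 (adjusted p = 0.0098) and -0.66 (adjusted p = 0.075). The share of all 17221 genes tested without this mouse was 0.186% for calls in either direction (32 genes) and 0.685% for all Chd8 V986*/+ mice below all WT mice (118 genes). For Fos, Fosb, Egr1, Egr2, Egr3, Egr4 and Npas4 the genotypes still overlapped without it. The mouse was picked after its low values were seen, and nothing in the labels sets it apart. As it was the lowest WT mouse for Junb, Nr4a1 and Arc, leaving it out had to widen their differences. The calls without it are therefore a description, and the values with all 12 mice are the ones reported.

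Not all members shared the lower means at 1 month. Egr1 differed by 0.02 ± 0.12 and Egr4 by -0.00 ± 0.10 (SE), while Fosb (0.12 ± 0.16) and Egr3 (0.09 ± 0.11) had slightly higher means in Chd8 V986*/+ mice. Fos, Egr2 and Npas4 had differences of -0.18 ± 0.19, -0.24 ± 0.20 and -0.14 ± 0.19. Over the 10 genes the median difference was -0.16, against -0.00 over all genes tested. Of the other early response genes, 0 of 34 were called, with a median of -0.04, and 0 of the 8 late response genes, with a median of 0.04.

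Markers of other tissue moved at the same age. All 7 striatum markers had higher means in Chd8 V986*/+ mice at 1 month, with a median difference of 0.38 and none called, and their mean level ranged from 9.40 to 11.28 in WT and from 10.32 to 11.12 in Chd8 V986*/+ mice. With that level as a covariate, the differences of Junb, Nr4a1 and Arc were -0.42, -0.39 and -0.43 (limma adjusted p = 0.34, 0.34 and 0.42). All 6 endothelial and mural cell markers had lower means, with a median of -0.24, a mean level of 8.89 to 9.60 in WT and of 8.26 to 9.41 in Chd8 V986*/+ mice. Their part in these differences was not tested. All 7 glucocorticoid-induced genes had higher means, with a median of 0.25, and Fkbp5, a co-chaperone of the glucocorticoid receptor, was called higher (0.34 ± 0.06; adjusted p = 0.055).

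At the other ages the differences were smaller than or close to their standard errors for most members. At E14.5 they ranged from -0.14 to 0.34, with Fosb highest (0.34 ± 0.18). With midbrain, hindbrain and spinal cord markers as a covariate, those of Fos, Arc and Npas4 at E14.5 changed sign, to -0.12, -0.003 and 0.012. At 6 months they ranged from -0.32 to 0.01, with Npas4 lowest (-0.32 ± 0.22), and Arc had means of 13.33 in both genotypes. At 12 months they ranged from -0.25 (Egr3, ± 0.15) to 0.36 (Npas4, ± 0.36), and Junb and Nr4a1, lower at 1 month, had differences of 0.24 ± 0.14 and 0.29 ± 0.17. At 12 months all 7 striatum markers (median -0.32), all 6 heat shock genes (-0.50) and all 7 glucocorticoid-induced genes (-0.37) had lower means in Chd8 V986*/+ mice, with none called. With the mean striatum level as a covariate, the differences were 0.08 ± 0.14 for Junb, 0.14 ± 0.18 for Nr4a1 and 0.09 ± 0.38 for Npas4, and those of Fos, Egr4 and Arc changed sign, to -0.16, -0.05 and -0.07.

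The genotype differences were compared between neighbouring ages in a fit of all 48 mice. No member was called between E14.5 and 1 month (0 of 10, against 0.0% of 17311 genes), between 1 and 6 months (0 of 10, against 0.0%) or between 6 and 12 months (0 of 10, against 0.0578%). The members with an unadjusted p below 0.05 numbered 1, 0 and 0 of 10, against 4.6%, 3.36% and 8.68% of all genes, so that 1 of 10 is close to the background. The 1 was Arc, whose genotype difference changed by -0.68 ± 0.30 (SE) from E14.5 to 1 month, with an adjusted p of 1.00.

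**Figure D2:**
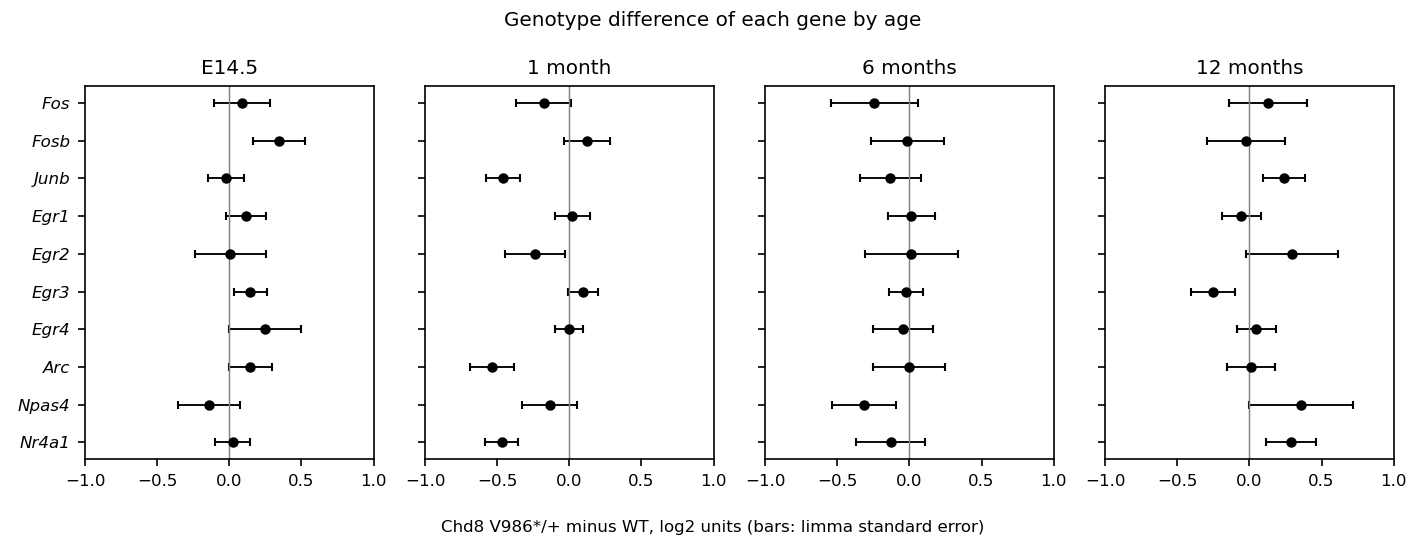
Difference in VST expression (log2 units) between Chd8 V986*/+ and WT mice for each gene, 1 panel per age, with bars for the limma standard error (6 mice per genotype). Junb, Nr4a1 and Arc sit near -0.5 at 1 month, and no difference in any panel was called.

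Between 1 and 6 months, 0 of 10 members were called higher in WT mice, against 12.3% of 17255 genes, and 4 of 10 in Chd8 V986*/+ mice, against 14.0% of 17207 genes. The 4 genes were Fosb (0.49 ± 0.14; adjusted p = 0.020), Junb (0.73 ± 0.17; adjusted p = 0.0077), Arc (0.60 ± 0.23; adjusted p = 0.081) and Nr4a1 (0.53 ± 0.21; adjusted p = 0.082). In WT mice the same genes had differences of 0.62 ± 0.26, 0.40 ± 0.16, 0.07 ± 0.18 and 0.19 ± 0.16, and the 2 with an unadjusted p below 0.05, Fosb and Junb, had adjusted p values of 0.11 and 0.10. At that unadjusted level 15.7% of all genes were higher in WT mice. The difference between the genotypes in this change was not called for any member, as given above.

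Ranges at 1 and 6 months overlapped for every member in both genotypes. Junb in Chd8 V986*/+ mice lay between 10.04 and 10.64 at 1 month and between 10.38 and 11.76 at 6 months. Arc in the same mice lay between 12.23 and 13.15 and then between 12.16 and 13.95. The lowest Fos of all mice after birth, 8.90, and the lowest Nr4a1, 10.68, both belonged to the Chd8 V986*/+ group at 6 months. Among the other early response genes, 7 were called higher and 1 lower in WT mice and 9 higher and 1 lower in Chd8 V986*/+ mice. Of all genes tested, 12.3% were called higher in WT mice and 14.0% in Chd8 V986*/+ mice. Atf3, a stress-induced factor, rose by 1.2 in WT and 0.97 in Chd8 V986*/+ mice. The late response gene Nptx2, a secreted pentraxin of synapses, fell by 0.49 and 0.57 on the log2 scale.

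The count of 4 in Chd8 V986*/+ mice was 2 (Fosb and Junb) with no filter on low genes, with no trend in the variance prior, with a robust variance estimate and at an adjusted p below 0.05. The count of 0 in WT mice was 3 without WT replicate 5 at 6 months, when Fos, Fosb and Junb were called, and the count of 4 was 7 without Chd8 V986*/+ replicate 5 at 6 months, which added Fos, Egr2 and Egr4.

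Between 6 and 12 months, all 10 members had lower means in WT mice, by 0.26 to 0.63 on the log2 scale, but 0 of 10 were called lower, against 0.00579% of 17283 genes. Nr4a1 (-0.44 ± 0.16), Egr2 (-0.63 ± 0.27), Junb (-0.34 ± 0.15) and Egr4 (-0.42 ± 0.19) had an unadjusted p below 0.05, with an adjusted p of 0.72 each, against 3.67% of all genes lower at that unadjusted level. In Chd8 V986*/+ mice 1 of 10, Egr3, was called lower, against 2.36% of 17254 genes. Egr3 lay between 12.52 and 13.05 at 6 months (median 12.76) and between 12.14 and 12.52 at 12 months (median 12.31), a difference of -0.50 ± 0.08 (adjusted p = 0.0091). The ranges overlapped at their edges. In WT mice Egr3 differed by -0.27 ± 0.18.

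Late response, heat shock and glucocorticoid-induced genes had lower means together with Egr3 in the Chd8 V986*/+ mice. Of all genes tested, 2.36% were called lower in these mice between 6 and 12 months. Of the 8 late response genes, 4 were called lower between 6 and 12 months, among them Bdnf, the neurotrophin (-0.32 ± 0.05), and Pcsk1 (-0.42 ± 0.08). Of the other early response genes, 7 of 34 were called lower, including Homer1, a scaffold protein of the synapse (-0.56 ± 0.08), and Nr4a3, a relative of Nr4a1 (-0.73 ± 0.15). All 6 heat shock genes were called lower, with a median of -0.45, and their mean level ranged from 10.02 to 10.56 at 6 months and from 9.83 to 9.92 at 12 months. All 7 glucocorticoid-induced genes had lower means at 12 months, with a median of -0.42 and 1 called, and their mean level went from 9.90 to 9.5. The part of these lists in the change of Egr3 was not tested. The genotype difference of Egr3 changed by -0.23 ± 0.20 between these ages, which was not called.

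Within groups, the members varied more between mice of 1 to 12 months than most genes did. Over the 36 mice of 1 to 12 months, the SD pooled over 6 groups was 0.63 for Egr2, 0.59 for Npas4, 0.57 for Fos and 0.51 for Fosb, and the lowest of the 10, for Egr3, was 0.27. The median over 17257 genes was 0.14. The members stood between the percentiles 75.6 (Egr3) and 99.3 (Egr2) of all genes. At E14.5 they stood between the percentiles 51.2 (Egr3) and 94.4 (Egr4) of 16877 genes, and Fosb, Egr2 and Egr4 were then near the floor. Against the median SD of genes of similar level at E14.5, Fosb (0.30 against 0.37) and Egr3 (0.19 against 0.22) varied less. Junb was equal (0.22), and Fos, Egr1, Egr2, Egr4, Arc, Npas4 and Nr4a1 varied more. The SD of Fos was 0.19 in WT mice at 12 months and 0.82 in Chd8 V986*/+ mice of that age, the narrowest and the widest of the 6 groups. This difference of spread was not tested.

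Mice with high Fos had high levels of most other members. After the mean of each group was subtracted, 43 of 45 pairs of members had a positive Pearson r over the 36 mice of 1 to 12 months, with a median of 0.69 and a range from -0.27 to 0.93. By permutation within groups, 35 of the 45 values of r and 33 of the 45 values of Spearman rho had a Benjamini-Hochberg adjusted p below 0.05. Each mouse gives the values of all 10 genes from 1 library, so the pairs share their libraries. The permutations treat the mice as independent and take no account of the replicate number. Fos in same-numbered WT and Chd8 V986*/+ mice had r = 0.17, 0.82 and 0.61 at 1, 6 and 12 months.

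By r the 3 tightest pairs held Fos, and by rho the tightest was Egr2 with Nr4a1 (r = 0.90, rho = 0.91). Fos and Junb had r = 0.93 and rho = 0.88 (permutation p = 1e-05 for each, the smallest that 100000 permutations give; adjusted p = 2.2e-05 and 2.6e-05). Without the 2 mice farthest from the median Fos, r was 0.92, and it was 0.93 within replicates 1 to 3 and 0.95 within replicates 4 to 6, the 2 sets of mice between which a difference had been removed from the deposited values. Egr2 (r = 0.92), Nr4a1 (0.91), Arc (0.88) and Egr4 (0.83) followed Fos closely, with r of 0.78 to 0.89 without the 2 farthest mice. At each single age these 4 genes and Junb had r with Fos of 0.74 or more, and at 6 months of 0.92 to 0.99.

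Egr3 did not follow Fos in the same way. Its r with Fos was 0.16 (permutation p = 0.27, adjusted p = 0.30) and its rho 0.10 (permutation p = 0.54, adjusted p = 0.57), and its r with Junb was -0.02. With Fosb its r was 0.81 (rho = 0.79; permutation p = 1e-05, adjusted p = 2.2e-05 and 2.6e-05), and with Egr1 0.69 (rho = 0.67; permutation p = 0.00012 and 8e-05, adjusted p = 0.0002 and 0.00017). In WT and Chd8 V986*/+ mice, r of Egr3 was 0.86 and 0.66 with Fosb, and 0.89 and 0.24 with Egr1. At 1, 6 and 12 months it was 0.91, 0.69 and 0.87 with Fosb, and 0.95, 0.36 and 0.88 with Egr1. These differences between genotypes and ages were not tested. Npas4 had r = 0.61 with Fos and 0.73 with Junb, but 0.06 with Fosb and -0.27 with Egr3. In WT and Chd8 V986*/+ mice, r of Npas4 was 0.36 and 0.80 with Fos, 0.70 and 0.76 with Junb, -0.29 and 0.65 with Fosb, and -0.48 and 0.13 with Egr3, and the difference between genotypes was not tested.

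**Figure D3:**
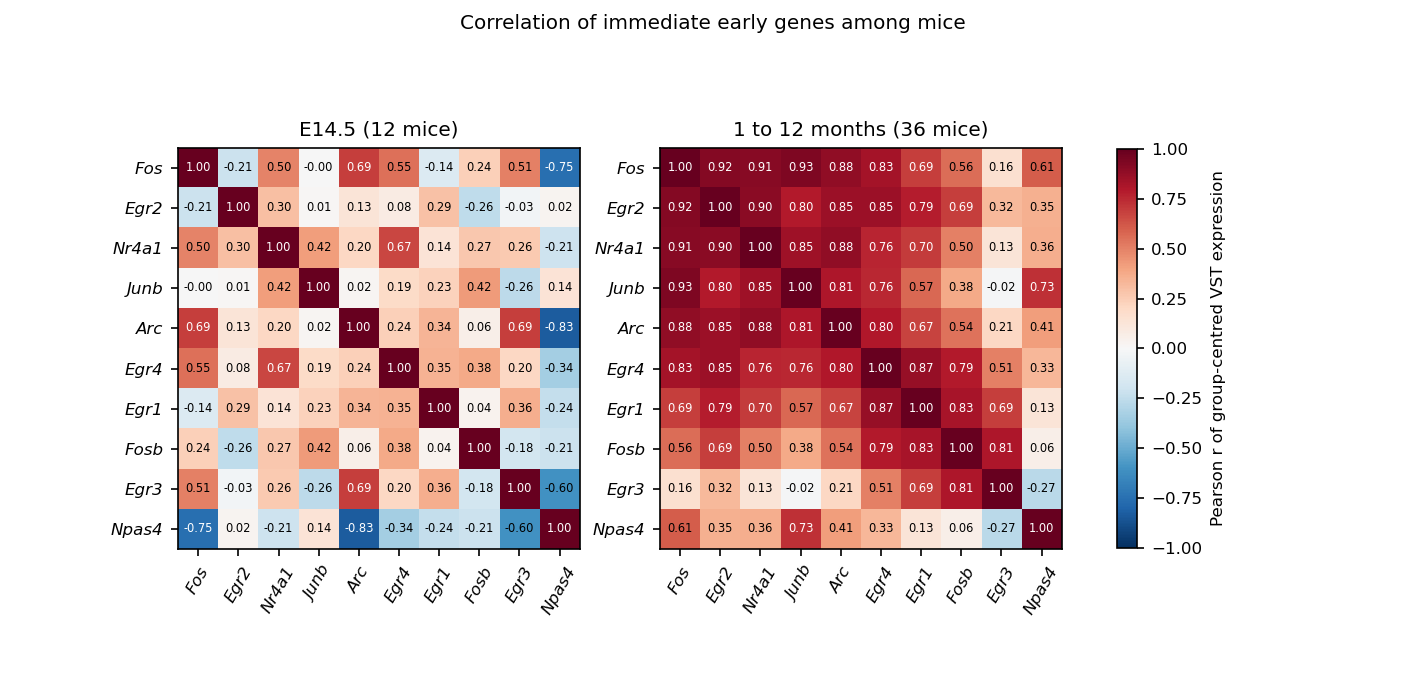
Pearson r between each pair of the 10 genes over mice after subtraction of the group mean, for 12 embryos at E14.5 (left) and 36 mice of 1 to 12 months (right), from -1 in blue to 1 in red. After birth the block from Fos to Egr4 has r from 0.76 to 0.93, and no such block is seen in embryos. Egr3 has r of 0.81 with Fosb and 0.69 with Egr1, the latter 0.89 in WT and 0.24 in Chd8 V986*/+ mice.

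A slope on Fos was then fitted for every gene over the 36 mice, with the 6 group means as terms. Of 9 members, 7 were called with a positive slope (Junb, Egr2, Nr4a1, Arc, Egr4, Egr1 and Npas4), against 0.139% of 17256 genes, which is 24 genes in all, and no gene was called with a negative slope. For each log2 unit of Fos, Egr2 was higher by 1.01 ± 0.08 (SE), Arc by 0.66 ± 0.06, Nr4a1 by 0.64 ± 0.05, Junb by 0.57 ± 0.04, Egr4 by 0.49 ± 0.06 and Egr1 by 0.37 ± 0.07 (adjusted p from 1.5e-12 to 0.0023). Npas4 had a slope of 0.62 ± 0.14 (adjusted p = 0.046), which was not called without Chd8 V986*/+ replicate 1 (adjusted p = 0.21) or 4 (adjusted p = 0.27) of 12 months. The slope of Fosb, 0.50 ± 0.12 (adjusted p = 0.16), and that of Egr3, 0.08 ± 0.08 (adjusted p = 1.00), were not called.

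Of the 24 genes, 10 more were among the 34 other early response genes. They were Dusp1 (0.54 ± 0.05), a phosphatase that acts on MAP kinases, Cyr61 (0.86 ± 0.08), a secreted matrix protein, Sik1, Ier2, Btg2, Gadd45b, Trib1, Dusp6, Gadd45g and Jun. The other 7, named after their values were seen, were Tiparp, Pvr, Lysmd3, Spty2d1, Cwc25, Apold1 and Sertad1. All 34 other early response genes had a positive slope, with a median of 0.21, against 0.00 over all genes. None of the 8 late response genes, 13 upstream factors, 7 glucocorticoid-induced genes, 6 heat shock genes or of the markers of any cell type was called. All 7 striatum markers had negative slopes, with a median of -0.22, and with their mean level as a covariate 7 of 9 members were called as before.

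**Figure D4:**
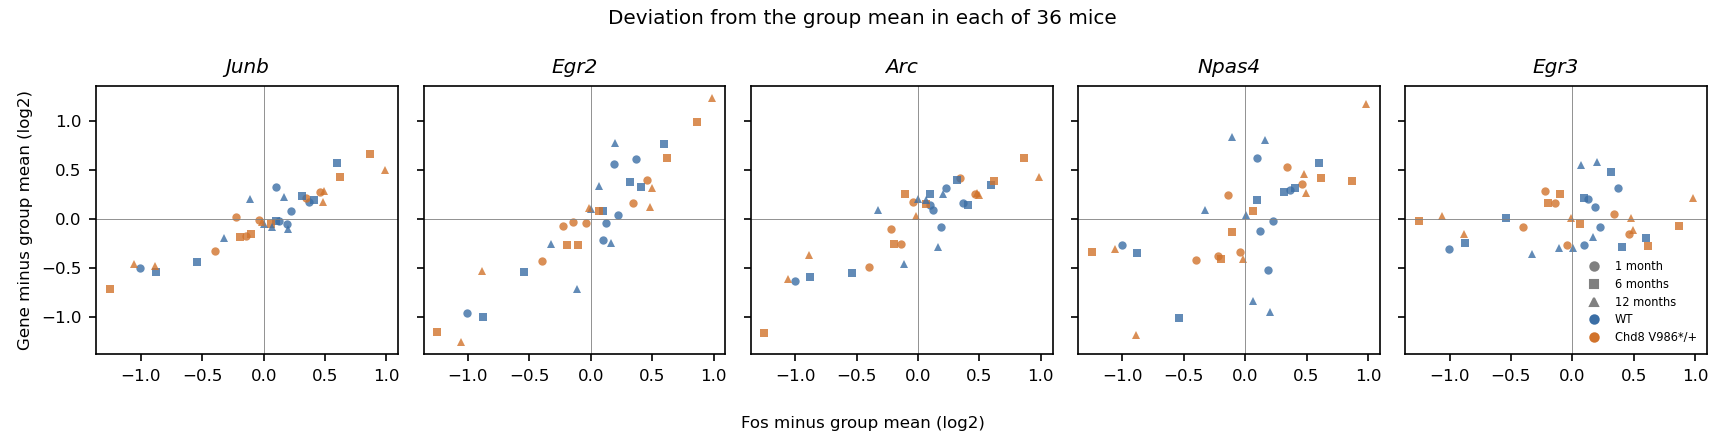
Deviation of Junb, Egr2, Arc, Npas4 and Egr3 from the group mean (y axis, log2) against that of Fos (x axis, log2) in the 36 mice of 1 to 12 months, with shape for age and color for genotype. Points of Junb, Egr2 and Arc lie along a rising line (r = 0.93, 0.92 and 0.88), those of Npas4 scatter around it (r = 0.61), and those of Egr3 show no slope (r = 0.16).

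Over 17247 genes that are not members, the 10 with the highest mean r to the 10 members were Sik1 (0.73), Gadd45b (0.69), Trib1 (0.66), Sertad1 (0.62), Tiparp (0.62), Dusp1 (0.62), Dusp6 (0.61), Spty2d1 (0.61), Cyr61 (0.60) and Cwc25 (0.60), over 36 mice. Of these, 6 were on the list of other early response genes. The 5 genes with the lowest mean r were Zfp870 (-0.51), Pafah2 (-0.48), Oxsm (-0.48), Ddx60 (-0.47) and Zfp273 (-0.46).

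Because Egr3 stood apart, the same fit was made with Egr3 in place of Fos, a choice made after seeing the data. Of 9 members, 3 were called with a positive slope, against 9.41% of 17256 genes, which is 1624 genes. They were Fosb (1.5 ± 0.19 per log2 unit of Egr3; adjusted p = 1.3e-06), Egr1 (0.77 ± 0.14; adjusted p = 0.00025) and Egr4 (0.62 ± 0.18; adjusted p = 0.023). Fos (0.34 ± 0.35), Nr4a1 (0.19 ± 0.24), Arc (0.32 ± 0.26) and Junb (-0.02 ± 0.22) were not called, and Npas4 had a slope of -0.58 ± 0.35.

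The lists were counted against both reference genes. Of the 8 late response genes, 6 were called with a positive slope on Egr3, among them Inhba, a subunit of activin (1.08 ± 0.16), Nptx2 (0.87 ± 0.10), Pcsk1 (0.84 ± 0.08) and Bdnf (0.61 ± 0.09), and none was called on Fos. The mean level of the 8 genes had r = 0.88 with Egr3 and -0.03 with Fos over the 36 mice. Of the other early response genes 17 of 34 were called on Egr3, against a background of 9.41% of 17256 genes. On Fos 10 of 34 were called, against a background of 0.139% of 17256 genes. With backgrounds so far apart, the counts on Egr3 and on Fos do not show which gene these lists follow more closely. On Egr3 the called early response genes were led in size by Maff (1.33 ± 0.31). Homer1 had the smallest p of all genes (0.91 ± 0.07; limma adjusted p = 8.2e-12). Of the upstream factors 6 of 13 were called on Egr3, Crem first (0.58 ± 0.09), a member of the CREB family.

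All 6 heat shock genes and 4 of 7 glucocorticoid-induced genes also had a called positive slope on Egr3, and their mean levels had r = 0.59 and 0.57 with Egr3, against 0.21 and -0.06 with Fos. Of all 17256 genes tested, 2425 were called on Egr3 in either direction and 1624 of them higher. Microglia markers had r = -0.50 with Egr3, with 2 of 5 called lower. Also called lower were 1 of 5 astrocyte, 1 of 6 endothelial and mural cell and 1 of 5 blood cell markers. Cortical neuron markers had r = 0.29 with 0 of 10 called. The part of these lists in the slope was not tested. These r are descriptions over mice whose values share a library. The difference between the slopes on Fos and on Egr3 was not tested.

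**Figure D5:**
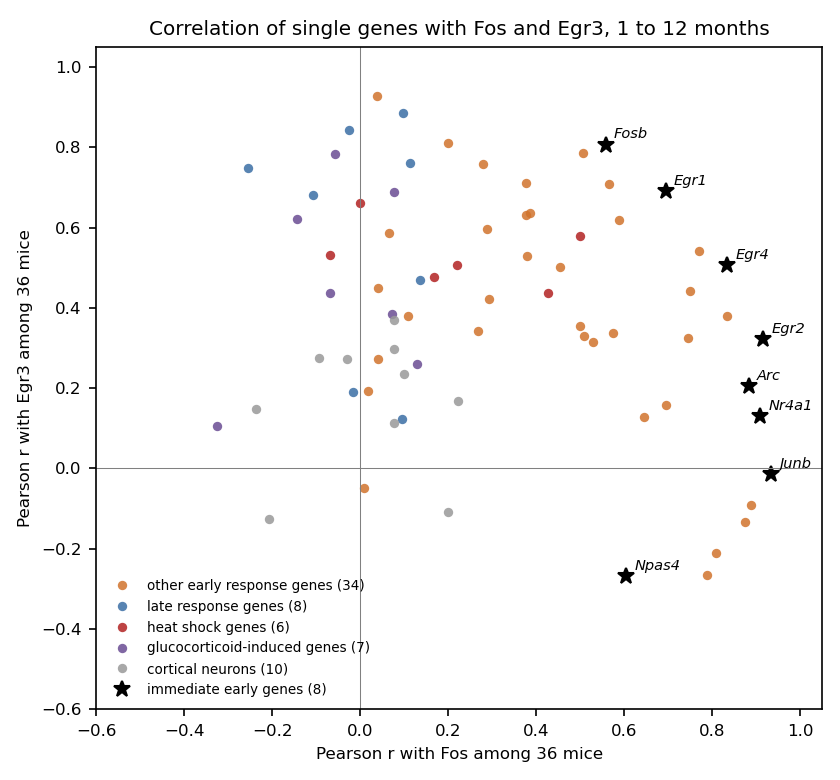
Pearson r of single genes with Fos (x axis) and with Egr3 (y axis) over the 36 mice of 1 to 12 months after subtraction of the group mean, with 8 of the 10 immediate early genes as stars and other lists as points. Junb, Nr4a1, Arc and Egr2 lie at the right with r of 0.88 or more with Fos, Fosb and Egr1 lie higher, and late response genes lie near 0 on the x axis.

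The 12 embryos were taken alone, and no test compared them with the later ages. Of the 45 pairs, 31 had a positive r, with a median of 0.14, and 0 of the 45 had an adjusted p below 0.05 by either r or rho. The most negative pairs held Npas4, with r = -0.83 to Arc (rho = -0.75; permutation p = 0.0015 and 0.0034, adjusted p = 0.063 and 0.052) and r = -0.75 to Fos (rho = -0.83; permutation p = 0.0028 and 0.0019, adjusted p = 0.063 and 0.052). Fos and Arc had r = 0.69 (rho = 0.79; permutation p = 0.0098 and 0.0046, adjusted p = 0.15 and 0.052). Without the 2 embryos farthest from the median of Arc or of Fos these r were -0.69 and -0.70. The slope on Fos called 0 of 9 members in embryos, against 0.0% of 16876 genes, and 2 of 9, Arc and Npas4, had an unadjusted p below 0.05, against 9.45% of all genes. Of the 34 other early response genes, 29 had a positive slope on Fos in embryos, with a median of 0.19, and their mean level had r = 0.74 with Fos, 0.77 with Arc and -0.73 with Npas4. Over the same 12 embryos, the mean levels of several lists had r of opposite sign with Arc and with Npas4, and these r were not tested. Oligodendrocyte markers had r = -0.74 with Arc and 0.65 with Npas4, late response genes -0.63 and 0.55, cortical neuron markers -0.52 and 0.53, astrocyte markers -0.48 and 0.49, midbrain, hindbrain and spinal cord markers -0.47 and 0.33, and heat shock genes 0.41 and -0.63. Striatum markers had -0.40 and 0.46, blood cell markers 0.33 and -0.26, and microglia markers -0.20 and 0.45. Upstream factors had 0.12 and -0.22, and glucocorticoid-induced genes -0.04 and 0.14. Clock genes (-0.19 and -0.22) and endothelial and mural cell markers (0.03 and 0.16) had the same sign with both. The part of these lists was not tested.

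In the mm9 genome used for the deposited values, the GENCODE annotation places Fos at 12:86814840-86818223, Fosb at 7:19888070-19895394, Junb at 8:87500811-87502617, Egr2 at 10:66998223-67004936, Egr3 at 14:70477252-70479964, Egr4 at 6:85461125-85463583, Arc at 15:74499513-74503000, Npas4 at 19:4984355-4989971 and Nr4a1 at 15:101097277-101105223. Each is a protein-coding gene.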

How the data were processed

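Cortical RNA of 48 male mice was sequenced. The authors aligned reads to mm9 (STAR 2.5.2b, Salmon 0.11.3 and DESeq2 1.22.2 per the submitters' processing notes) and deposited variance-stabilized values on a log2 scale for 24444 genes. In each gene, the mean of replicates 1 to 3 matched the mean of replicates 4 to 6 (largest gap 3.2e-14), so a difference between these sets was taken out before deposit, and p values do not count that step. No counts were used here, so the depth behind a value is unknown and precision is the spread between mice.

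Differences and slopes were fitted with limma 3.58.1 (R 4.3.3) with a variance trend, over genes averaging 0.5 or more over the floor, with Benjamini-Hochberg adjustment over all of them and calls below 0.1. Single differences were also tested by exact two-sided permutation, and correlations by 100000 permutations within groups. The fitting was tested on simulated data. Groups, ages and replicate numbers come from the labels. All members are named, with up to 4 called genes of each related list per comparison by size and the genes most and least like the members. Members and lists were chosen with earlier results of these data known. Alternatives covered normalization, filter, variance model, batch set, replicate block, marker covariates and leaving out each mouse.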

Additional observations from a re-analysis of the deposited data

Results flagged for a closer look

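In 4 of 80 groups of 6 mice, the highest or lowest value lay far from the other 5 by Dixon's test at the 95% level, which chance gives in about 1 of 20 groups. Fos was 8.92 in WT replicate 5 at 1 month, against 10.02 to 10.30 in the others. Egr1 was 7.05 in WT replicate 6 at E14.5, against 6.41 to 6.63. Egr4 was 1.99 in WT replicate 3 at E14.5, against 2.88 to 3.37, below the floor of the table. Npas4 was 4.39 in WT replicate 6 at E14.5, against 5.19 to 5.48.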

How the results depend on the processing

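Of the member values given in the text, 63 were recomputed under other settings, and 654 of 680 recomputed values kept their direction and their side of the threshold. With 1 mouse left out at a time, 1216 of 1272 values of 66 results did. The members called higher from E14.5 to 1 month stayed at 10 in each genotype, those with a slope on Egr3 at 3, and those with a slope on Fos between 6 and 8. No counts were used, so what depth limits is unknown.

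For WT mice at 6 against 1 month, where 0 members were called higher, 1 was called with quantile normalization, with samples centred on their median gene and in a fit of all 48 mice, and 2 with the set of replicates as a term. For Chd8 V986*/+ mice, 2 in place of 4 were called with no filter, with no variance trend, with a robust variance estimate and at an adjusted p below 0.05. At 12 against 6 months in Chd8 V986*/+ mice, 0 in place of 1 was called lower in the fit of all 48 mice, where Egr3 had a limma adjusted p of 0.11. The slope of Npas4 on Fos was not called with no filter (limma adjusted p = 0.12), no variance trend (0.12) or a robust estimate (0.17).

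The replicate numbers were not taken as pairs, since not every same-numbered pair had r over 0.1 across genes (4 of 6 in embryos, then 0, 1 and 0 of 6). That rule covers all genes, and an effect of the replicate number shared by the members was not tested. The main fits and the permutations within groups treat all mice as independent. The mean r of same-numbered pairs was 0.23 in embryos and 0.018, 0.045 and -0.034 later, in order of age. In embryos 4 WT samples correlated best with their own number, and Fos alone had a same-number r of 0.48, 0.17, 0.82 and 0.61 over 6 pairs at each age. With a replicate block, 1 member in place of 0 was called lower at 1 month (Nr4a1, limma adjusted p = 0.084), 3 in place of 0 were called higher in WT mice at 6 against 1 month, and the slope of Junb on Egr3 was 0.10.

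Without 1 mouse, the members called lower at 1 month numbered 0 to 3, with 3 only without WT replicate 5. Those called higher at 6 against 1 month numbered 0 to 3 in WT mice (1 without replicate 1 or 6 of 1 month, 2 without replicate 4 and 3 without replicate 5 of 6 months). In Chd8 V986*/+ mice they numbered 2 to 7, with 2 without replicate 3, 4 or 5 of 1 month or 1, 4 or 6 of 6 months. Those called lower at 12 against 6 months in Chd8 V986*/+ mice numbered 1 to 4, with 4 without replicate 5 of 6 months and 2 without replicate 4 of 12 months. The exact permutation p of Arc at 1 month was 0.054 without WT replicate 4. Over all genes, those called between genotypes at 12 months went from 8 to between 2 and 251.

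Some values that were not called changed sign. With midbrain, hindbrain and spinal cord markers as a covariate, the genotype difference at E14.5 was -0.12 for Fos, -0.003 for Arc and 0.012 for Npas4. With the same covariate, that of Egr2 at 6 months was -0.028 and that of Arc at 12 months -0.016. That of Egr4 at 1 month was 0.0066 with samples centred on their median gene and 0.076 with striatum markers as a covariate. Without 1 mouse, the differences at 1 month ranged from -0.069 to 0.11 for Egr1 and from -0.079 to 0.051 for Egr4, that of Egr2 at 6 months from -0.19 to 0.25, the change of Arc in WT mice from 1 to 6 months from -0.060 to 0.19, and the slope of Junb on Egr3 from -0.11 to 0.047. The cause of these changes was not tested.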
